A study of Mus musculus with 6 samples.

Results

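Keratins are the intermediate filament proteins of epithelial cells. They were followed here through 10 genes in tongues of C57BL/6J mice. The genes were taken by name: Krt84 and Krt36 of the filiform papillae, Krt7, Krt8, Krt18 and Krt19 of simple epithelia, Krt1 and Krt10 of the epidermis, and 2 further type I keratins, Krt23 and Krt24. All 10 were measured, among 18193 genes. Total RNA was taken from individual tongues of C57BL/6J mice. There were 3 untreated controls and 3 mice that drank the carcinogen 4NQO (4-nitroquinoline 1-oxide), which damages DNA, for 8 weeks at 100 μg/ml. Each RNA was hybridized to an Affymetrix mouse array, and the values are the authors' normalized log2 signals. The labels give only tongue and do not say which part was taken. A signal may thus be an average over surface epithelium, muscle, glands, vessels and connective tissue. Fewer cells of a type cannot be told apart from less RNA per cell.

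Keratin filaments are built from pairs of a type II and a type I protein, and which pair a cell makes depends on its type and stage. Krt8 with Krt18 is the pair of simple epithelia such as glands and ducts, which also make Krt7 and Krt19. Krt1 with Krt10 is the pair of the upper layers of epidermis and of other cornified surfaces. Krt84 and Krt36 belong to the hard keratins, known from hair, nail and the horny spines of the tongue's filiform papillae. In the RefSeq gene order of mouse, Krt7, Krt8, Krt84 and Krt1 lie on chromosome 15 and Krt36, Krt19, Krt10, Krt23 and Krt24 on chromosome 11. Krt18, a type I gene, lies on chromosome 15 as the direct neighbour of Krt8.

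The start regions of Krt8 and Krt18, the neighbours whose signals ran together across the tongues, are shown with that of Krt7, a simple keratin whose signal ran separately. They are RefSeq sequences of the build GRCm38.p6, from 250 bases before to 50 bases after the start. Capitals mark matches on either strand to a GC box (GGGCGG) or a TATA box (TATAAA). An AP-1 site (TGANTCA) was also searched and is in none of these windows.
Krt8, chr15:102004293-102004592, minus strand: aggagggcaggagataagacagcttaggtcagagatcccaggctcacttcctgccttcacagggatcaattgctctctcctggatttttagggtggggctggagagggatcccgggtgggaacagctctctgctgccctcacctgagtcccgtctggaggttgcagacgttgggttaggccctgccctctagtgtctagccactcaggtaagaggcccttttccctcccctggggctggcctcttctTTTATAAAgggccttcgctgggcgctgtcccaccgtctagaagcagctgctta
Krt18, chr15:102027966-102028265, plus strand: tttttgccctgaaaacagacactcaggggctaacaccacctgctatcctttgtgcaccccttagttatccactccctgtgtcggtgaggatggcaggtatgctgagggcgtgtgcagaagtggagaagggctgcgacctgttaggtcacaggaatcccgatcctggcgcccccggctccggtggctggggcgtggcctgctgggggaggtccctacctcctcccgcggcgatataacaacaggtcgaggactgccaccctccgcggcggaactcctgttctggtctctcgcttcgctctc
Krt7, chr15:101412153-101412452, plus strand: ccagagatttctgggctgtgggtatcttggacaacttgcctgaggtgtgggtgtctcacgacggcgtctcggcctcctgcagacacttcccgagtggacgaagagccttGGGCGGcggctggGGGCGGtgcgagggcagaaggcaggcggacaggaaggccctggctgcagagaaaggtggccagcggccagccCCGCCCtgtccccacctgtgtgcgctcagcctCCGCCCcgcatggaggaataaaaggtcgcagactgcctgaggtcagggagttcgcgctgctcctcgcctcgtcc

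Krt7 held 4 GC boxes, and Krt8 and Krt18 held none with these letters. Krt8 held a match to the TATA box letters on both strands with overlap, lying across the annotated start. Of 32851 RefSeq start regions, 35.7% held a GC box, 13.6% a TATA box and 7.81% an AP-1 site. A start region was found for 8 of the 10 keratins, all but Krt19 and Krt1. Krt10 and Krt84 each held 1 match to the TATA box letters over both strands, that of Krt84 near the upstream end of its window. All of these are matches of letters at any position in the window, and whether any acts as a promoter element was not tested.

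None of the 10 keratins passed the test between 4NQO-treated and control tongue. By limma with Benjamini-Hochberg adjustment over all genes, 0 keratins were higher and 0 lower at an adjusted p under 0.05. Of all genes, 0.126% were higher and 0.0055% lower. Without adjustment, 0 keratins passed at a p under 0.05 in either direction, against 6.68% of all genes higher and 3.74% lower. SAM, the method of the study, also called 0 of the 10, and so did the methods' t-test, adjusted or not. For no keratin were the groups separated. Of all genes, 9.59% lay higher and 7.18% lower in every 4NQO-treated tongue than in any control tongue. With only 10 genes, counts of 0 do not set the keratins apart from all genes. The log2 fold change was above 0 for 4 keratins and below 0 for 6, with a median of -0.08 beside -0.01 over all genes.

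The test could not settle moderate changes in several of these genes, because single tongues differed so much within a group. The range of the log2 signal over the 6 tongues was 4.27 for Krt1, 3.86 for Krt10, 3.55 for Krt8 and 3.14 for Krt18. Each of these ranges was wider than that of over 99.4% of all genes, and the median gene had a range of 0.56. The range was 2.49 for Krt7 and lay between 0.69 for Krt84 and 1.26 for Krt23 in the other 5. The pooled SD within groups was 1.47 for Krt8 and 0.31 for Krt84 and Krt24, against 0.20 for the median gene.

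**Figure D1:**
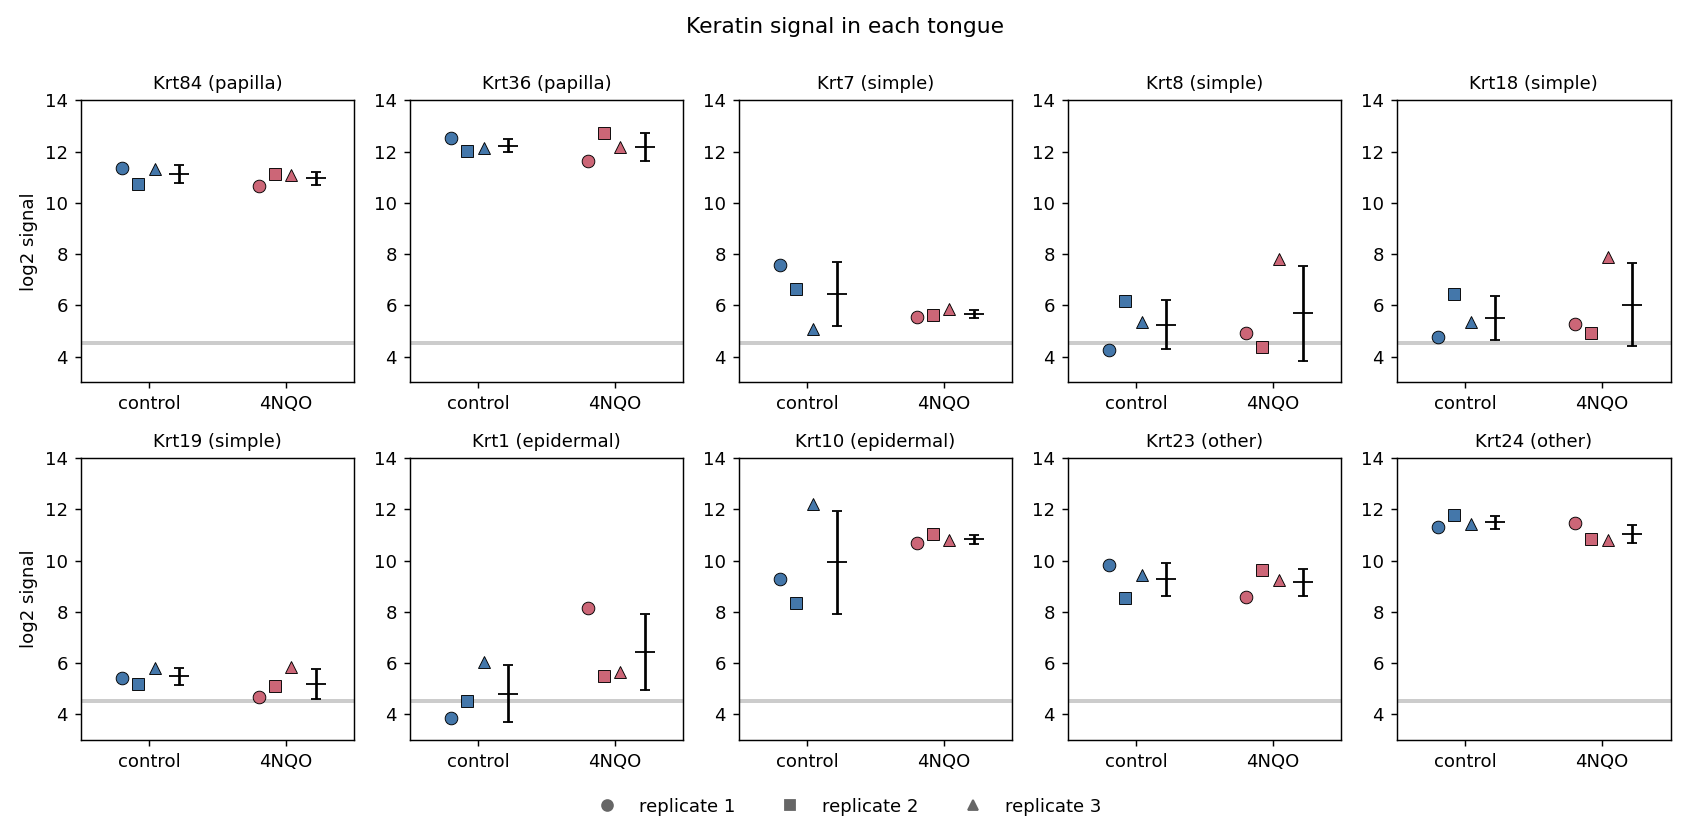
Log2 signal of each keratin in 3 control (blue) and 3 4NQO-treated (red) tongues, with 1 point per tongue, marker shape for the replicate number, and a black dash with error bars for the group mean and SD. The grey band is the range of the array medians; Krt8 and Krt1 have tongues below it, and the groups overlap in all 10 panels.

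Krt84, a type II hard keratin, had log2 signals of 11.35, 10.72 and 11.31 in control tongues 1 to 3 and of 10.65, 11.14 and 11.08 in 4NQO-treated tongues 1 to 3, the order kept below. Both groups covered nearly the same range, and the lowest tongue, 4NQO 1, lay just under control 2. The log2 fold change was -0.17 (95% interval -0.64 to 0.30, adjusted p = 0.80 from limma).
Krt36, a type I hard keratin, had 12.53, 12.01 and 12.16 in control and 11.64, 12.74 and 12.19 in 4NQO-treated tongue. The lowest and the highest signal both came from the treated group. Its log2 fold change was -0.05 (95% interval -0.66 to 0.57, adjusted p = 0.965 from limma), and it was 0.23 without 4NQO replicate 1.
Both papilla keratins were bright, above the array medians in every tongue. Their intervals did not reach a log2 change of 1 in either direction.

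Krt8 and Krt18, the pair of simple epithelia, were high in 1 tongue of each group. Krt8 had log2 signals of 4.25, 6.17 and 5.35 in control and 4.91, 4.37 and 7.79 in 4NQO-treated tongue. Krt18 had 4.76, 6.46 and 5.34 in control and 5.29, 4.92 and 7.90 in 4NQO-treated tongue. In both genes control 2 stood highest among the controls and 4NQO 3 highest of all, and the 6 tongues fell in the same order.
The log2 fold change was 0.44 for Krt8 (95% interval -1.56 to 2.43, adjusted p = 0.888 from limma) and 0.52 for Krt18 (-1.26 to 2.29, adjusted p = 0.845). The sign rested on 4NQO 3: without it the log2 fold changes were -0.61 and -0.42 (adjusted p = 0.711 and 0.790 from limma). Without control 1, that of Krt8 was -0.06. The remaining probe sets of Krt8, both of a kind whose probes may match other transcripts, gave 0.27 and 0.67 (adjusted p = 0.929 and 0.786 from limma over 34945 probe sets), and both were highest in 4NQO 3 and next in control 2. The signals of Krt8 in control 1 and 4NQO 2 lay below the array medians, so no linear fold is given.

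Many markers of minor salivary gland, whose ducts and acini make Krt8 and Krt18, were high in the same tongues. Over 18 measured of 20 listed gland genes, the log2 of the summed signal was 10.56, 14.12 and 12.19 in control tongues 1 to 3 and 10.77, 10.61 and 14.75 in 4NQO-treated tongues 1 to 3. The ranges, 10.56 to 14.12 and 10.61 to 14.75, overlapped between the groups. Of the 18 genes, 11 were highest in control 2 among the controls and in 4NQO 3 among the treated tongues, as were 10.6% of all genes.
Amy1, a salivary amylase, had log2 signals of 7.73, 11.83 and 9.97 in control and 7.46, 6.25 and 12.50 in 4NQO-treated tongue. Bpifa2, a secretory protein of salivary glands, had 2.31, 11.41 and 8.37 in control and 2.10, 2.80 and 12.31 in 4NQO-treated tongue. Muc5b, a gland mucin, had 4.38, 9.76 and 6.81 in control and 3.19, 3.72 and 9.15 in 4NQO-treated tongue. These 3 genes are among the 11 that were highest in the 2 tongues in which Krt8 and Krt18 stood high. Some other gland genes were not. Smr2, a submaxillary gland protein, was highest in 4NQO 1, with 8.60, 8.71 and 8.09 in control and 8.87, 8.36 and 8.35 in 4NQO-treated tongue. Slc12a2, an ion cotransporter of secretory cells, was highest in control 3 and 4NQO 2 of their groups, with 9.53, 9.86 and 9.92 in control and 9.87, 9.94 and 9.60 in 4NQO-treated tongue.
No gland gene was listed at 0, and 7 of the 18 lay below the array medians in every tongue. None of the 18 passed limma's test in either direction, also at an unadjusted p under 0.05, and their median log2 fold change was 0.03. Of 8 endothelial and mesothelial markers, 5 were highest in the same 2 tongues, with a summed log2 signal of 10.64 to 11.22 in control and 10.86 to 11.20 in 4NQO-treated tongue. Of 15 measured taste bud markers, cells that also make Krt8 and Krt18, 2 were. Without control 2 and 4NQO 3 together, the log2 fold change was -0.16 for Krt8 and 0.055 for Krt18 (adjusted p = 0.957 and 0.978 from limma). The part of gland tissue in the Krt8 and Krt18 signals was not tested.

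**Figure D2:**
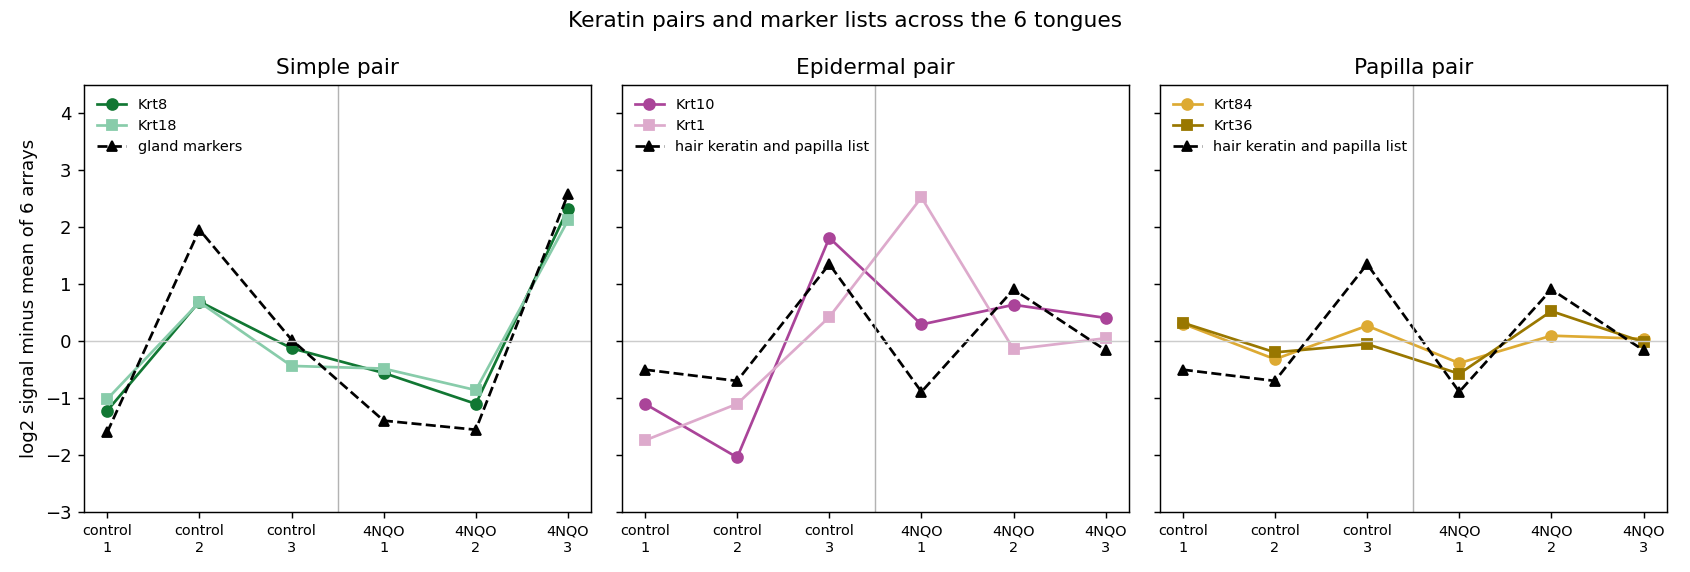
Log2 signal of the simple, epidermal and papilla pairs in each of the 6 tongues, minus the mean of the 6, with the log2 of the summed signal of a marker list as a dashed black line (gland markers at left, hair keratins and papilla genes in the middle and at right). Lines only join the points of a gene. Krt8, Krt18 and the gland markers are highest in control 2 and 4NQO 3 of their groups, and Krt10 and the hair keratin list are highest in control 3.

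Krt7, a type II keratin of glands and ducts, went another way than Krt8 and Krt18. Its log2 signal was 7.59, 6.65 and 5.10 in control and 5.55, 5.64 and 5.84 in 4NQO-treated tongue. Controls 1 and 2 lay above all treated tongues and control 3 below them. For Krt7 the log2 fold change was -0.77 (95% interval -2.01 to 0.47, adjusted p = 0.655 from limma). Without control 3 it was -1.44 (unadjusted p = 0.00137, adjusted p = 0.134 from limma), and without control 1 it was -0.20. The 3 treated tongues lay within 0.29 of each other and the 3 controls within 2.49.
Muscle fibre markers ran in part with it: over 15 genes the mean log2 signal was 12.21, 12.02 and 11.42 in control and 11.91, 11.28 and 11.91 in 4NQO-treated tongue, so that control 3 was the lowest control and 4NQO 2 the lowest of all. All 15 were above the array medians in every tongue. Their part in the Krt7 signal was not tested.

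Krt19, a type I keratin of ducts and of some basal cells, had log2 signals of 5.43, 5.18 and 5.82 in control and 4.67, 5.10 and 5.83 in 4NQO-treated tongue. Treated tongues 1 and 2 were lowest, and 4NQO 3 was level with control 3. For Krt19 the log2 fold change was -0.28 (95% interval -0.99 to 0.43, adjusted p = 0.778 from limma). Without 4NQO replicate 3 it was -0.60.

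Krt1 and Krt10, the epidermal pair, had higher means in 4NQO-treated tongue, and neither passed the test. Krt1 had log2 signals of 3.88, 4.52 and 6.05 in control and 8.15, 5.48 and 5.67 in 4NQO-treated tongue. Only control 3 kept the groups from separating. Controls 1 and 2 lay below the array medians, and 4NQO 1 was the highest tongue. Krt1 had a log2 fold change of 1.62 (95% interval -0.17 to 3.41, unadjusted p = 0.0708, adjusted p = 0.521 from limma), the largest of the 10 keratins. It was 0.76 without 4NQO 1 and 2.23 without control 3 (adjusted p = 0.684 and 0.289 from limma).
Krt10 had 9.27, 8.33 and 12.19 in control and 10.67, 11.01 and 10.78 in 4NQO-treated tongue. The 3 treated tongues lay within 0.35 of each other, above controls 1 and 2 and below control 3. Krt10 had a log2 fold change of 0.89 (95% interval -1.04 to 2.82, adjusted p = 0.734 from limma). Control 3 decided its size: without that tongue the log2 fold change was 2.02 (standard error 0.27, unadjusted p = 0.000112, adjusted p = 0.0660 from limma), still not past the threshold. Without control 2 it was 0.09.

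Control 3 was also the highest tongue in some other measures. The Gapdh control probe sets differed most there, with the 3′ set 1.67 log2 units above the 5′ set. This gap was 1.07 in 4NQO 2 and between 0.086 and 0.47 in the remaining 4 tongues. The actin control probe sets did not set these tongues apart, with a gap of 1.1 in 4NQO 1, 1.0 in control 3, 0.95 in 4NQO 2 and 0.55 to 0.83 in the others. Some hair keratins were high in the same 2 tongues. Krt34, a hair keratin, had log2 signals of 6.87, 5.13 and 11.14 in control and 4.15, 10.65 and 9.02 in 4NQO-treated tongue. Krt31, another, had 8.11, 6.42 and 10.51 in control and 5.63, 10.34 and 8.84 in 4NQO-treated tongue. Over 21 measured of 22 listed hair keratins and filiform papilla genes, the log2 of the summed signal was 12.00, 11.80 and 13.85 in control and 11.61, 13.41 and 12.34 in 4NQO-treated tongue, and 11 of the 21 were highest in control 3 and 4NQO 2 of their groups, as were 16.7% of all genes. Other genes of this list ran differently. Krt35, a hair keratin, was highest in control 1, with log2 signals of 8.92, 7.45 and 7.45 in control and 6.93, 6.33 and 6.00 in 4NQO-treated tongue, and Krt84 and Krt36 were highest among the controls in control 1 as well. Of the 21 genes, 3 lay below the array medians in every tongue and none was listed at 0. Without control 3 and 4NQO 2 together, the log2 fold change was 1.92 for Krt10 (adjusted p = 0.206 from limma), 2.71 for Krt1 (0.381), -1.42 for Krt7 (0.337), -0.17 for Krt84 (0.862) and -0.36 for Krt36 (0.675). The part of these differences between tongues in the keratin signals was not tested.

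**Figure D3:**
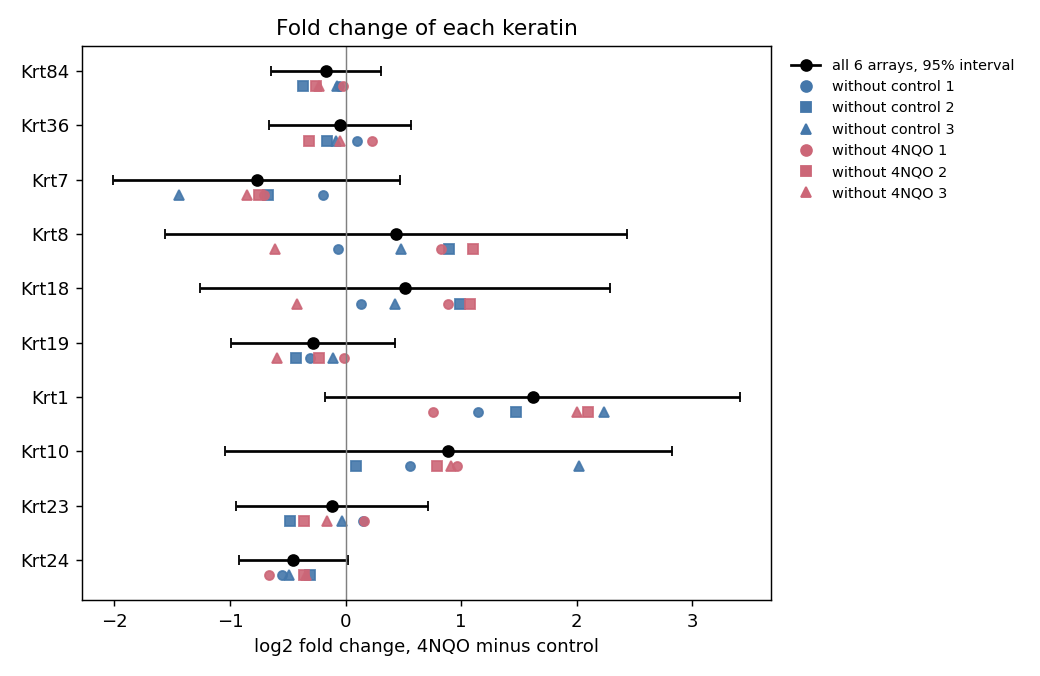
Log2 fold change of each keratin, 4NQO-treated minus control, with all 6 arrays (black, with 95% interval from limma) and with each array left out in turn (coloured markers below, blue for a control and red for a 4NQO array). All 10 intervals span 0; leaving out control 3 moves Krt10 to 2.02 and Krt7 to -1.44, and leaving out 4NQO 3 takes Krt8 and Krt18 below 0.

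Krt23 and Krt24, both type I keratins, had lower means in 4NQO-treated tongue and did not pass the test. Krt23 had log2 signals of 9.81, 8.55 and 9.45 in control and 8.59, 9.63 and 9.24 in 4NQO-treated tongue, with the groups mixed. Its log2 fold change was -0.12 (95% interval -0.95 to 0.71, adjusted p = 0.930 from limma), and it was above 0 without control 1 or without 4NQO 1.
Krt24, which is known from differentiating keratinocytes, had 11.29, 11.77 and 11.40 in control and 11.45, 10.85 and 10.82 in 4NQO-treated tongue. Treated tongues 2 and 3 lay below all controls, and 4NQO 1 among them. The log2 fold change was -0.45 (95% interval -0.92 to 0.02, unadjusted p = 0.0579, adjusted p = 0.496 from limma), and it was below 0 under all 17 alternatives that refit limma. Without 4NQO 1 it was -0.66 (unadjusted p = 0.00632, adjusted p = 0.286 from limma).

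The 4 pairs of a type II with a type I keratin were compared within each tongue, by the difference of their log2 signals. The difference between the groups in this value was -0.12 for Krt84 minus Krt36, -0.08 for Krt8 minus Krt18, -0.49 for Krt7 minus Krt19 and 0.73 for Krt1 minus Krt10. The two-sided exact permutation test gave p = 0.7, 0.7, 0.6 and 0.6, all 0.7 after adjustment over the 4 pairs, and 3 against 3 tongues cannot give a p below 0.1. Krt8 minus Krt18 was -0.27 ± 0.26 (SD, n = 3) in control and -0.34 ± 0.22 (SD, n = 3) in 4NQO-treated tongue, and Krt84 minus Krt36 was -1.11 ± 0.23 (SD, n = 3) and -1.23 ± 0.33 (SD, n = 3). Krt7 minus Krt19 varied most among controls, at 0.97 ± 1.5 (SD, n = 3), against 0.48 ± 0.43 (SD, n = 3) in 4NQO-treated tongue.
Over the 6 tongues, Krt8 and Krt18 had Pearson's r of 0.99 (exact permutation p = 0.00139, 0.00556 after adjustment over the 4 pairs) and Spearman's rho of 1 (exact permutation p = 0.00278, adjusted 0.0111). Without 4NQO 3 and control 2, the 2 tongues farthest from the median of Krt8, r was 0.95. The order was thus shared by the other tongues as well.
Krt84 and Krt36 had r of 0.74 and rho of 0.71 (exact permutation p = 0.0903 and 0.136, adjusted 0.181 and 0.272), and r was -0.05 without 4NQO 1 and control 2, so the relation rests on those tongues. Krt1 and Krt10 had r of 0.56 and rho of 0.54 (exact permutation p = 0.258 and 0.297, adjusted 0.344 and 0.396), and r was 0.98 without 4NQO 1 and control 1. Krt7 and Krt19 had r of -0.04 and rho of 0.14 (exact permutation p = 0.940 and 0.803, adjusted 0.940 and 0.803), and r was -0.18 without control 1 and control 2. The correlations were computed after the values had been seen.
Among all 45 pairs of the 10 keratins, r was above 0.8 for 3, Krt8 with Krt18, Krt84 with Krt23 (0.95) and Krt36 with Krt23 (0.86), and below -0.8 for 1, Krt7 with Krt10 (-0.83). Each r is a description over 6 tongues in which both genes were read from the same RNA and array, and apart from the 4 pairs above no test was made.

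**Figure D4:**
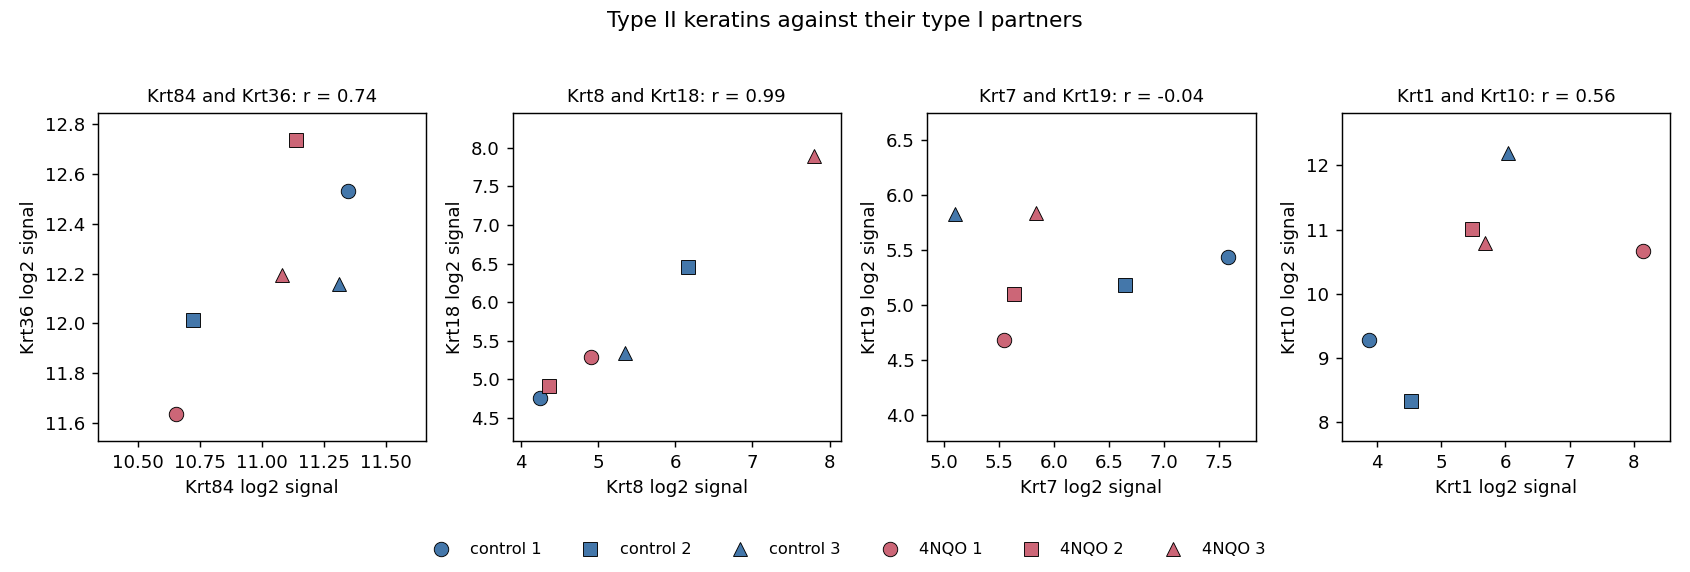
Log2 signal of each type II keratin (x axis) against that of its type I partner (y axis), with 1 point per tongue, blue for control and red for 4NQO, and equal scales on both axes of a panel. Krt8 and Krt18 lie along 1 line with r of 0.99, whereas Krt7 and Krt19 have r of -0.04.

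For the keratin with the largest absolute log2 fold change of each kind, the genes closest to it over the 6 tongues were sought among genes brighter than the median gene. Closest to Krt84 were Sec61a2 (r = 0.98), Ada, the adenosine deaminase (0.98), and Bpgm (0.97). Closest to Krt7 were Tfb2m, a mitochondrial transcription factor (0.99), Lmod3, a leiomodin of muscle filaments (0.99), and Atp5pb, an ATP synthase subunit (0.99). Closest to Krt1 were Dbndd2, Exo5 and Inava (r = 0.99, 0.98 and 0.98), and to Krt24 Cep89, Speg and Pim3 (0.99, 0.98 and 0.98). With 6 tongues, 56 to 144 of 9095 or 9096 genes had r above 0.9 with each of these keratins, so the names are a description.

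Genes that belong with these keratins were counted in lists, and none of them passed over all genes in limma. Of 27 other measured keratins, 0 were called. At an unadjusted p under 0.05, 5 of them were higher and 1 was lower, beside 6.68% and 3.74% of all genes. Krt16 and Krt17, keratins of stressed epithelium, had log2 fold changes of 0.78 and 1.67 (adjusted p = 0.194 and 0.223 from limma), and Krt6a and Krt6b had 0.34 and 0.59 (0.224 and 0.230). The median over these 27 was 0.01. Of the 27, 4 lay higher and 2 lower in every treated tongue than in any control, beside 9.59% and 7.18% of all genes. The 4 were Krt16, Krt17, Krt6a and Krt6b.
Of 21 hair keratins and filiform papilla genes, 0 were called. At an unadjusted p under 0.05, 0 were higher and 2 lower, beside 6.68% and 3.74% of all genes. Krt35, a hair keratin and the neighbour of Krt36, had a log2 fold change of -1.52, and Selenbp1, a selenium-binding protein, had -0.66 (adjusted p = 0.261 and 0.264 from limma). These 2 of the 21 lay lower in every treated tongue than in any control, as did 7.18% of all genes. Tchhl1, a relative of trichohyalin, and Foxn1, a transcription factor of hair and nail, had 0.92 and 0.42 (adjusted p = 0.498 and 0.573).
Of 25 epidermal differentiation genes, 0 were called. At an unadjusted p under 0.05, 5 of them were higher and 0 lower, beside 6.68% and 3.74% of all genes. The log2 fold change was above 0 for 22 of the 25, beside 8679 of all 18193 genes. The median was 0.42, beside -0.01 over all genes. The mean log2 signal of the list was 9.87, 9.23 and 10.18 in control and 10.13, 10.24 and 10.10 in 4NQO-treated tongue, so that control 2 lay lowest and control 3 within the treated range. Dsc1, a desmosomal cadherin of upper epidermis, had 0.79, Elovl4, a fatty acid elongase of the skin barrier, 0.60, Lce1c, a cornified envelope protein, 0.90, and Casp14, a caspase of cornification, 0.80 (adjusted p = 0.293 to 0.433 from limma). Of these 25 genes, 10 were highest in control 3 and 4NQO 2 of their groups, as were 16.7% of all genes.
Of 19 genes listed as companions of simple keratins, 0 were called and the median was 0.27. At an unadjusted p under 0.05, 3 were higher, beside 6.68% of all genes. The list is not confined to glands and ducts, and its brightest genes were Plec, Dsp and Eppk1 (mean log2 signal 11.19, 10.75 and 10.72). Of the 19, 4 were highest in control 2 and 4NQO 3 of their groups, as were 10.6% of all genes. Sox9, Cdh1 and Cldn4 had log2 fold changes of 0.75, 0.58 and 0.40, and Dsp, desmoplakin, had 0.32 (adjusted p = 0.428 to 0.565 from limma). The summed log2 signal of this list was 13.09 to 13.15 in control and 13.14 to 13.29 in 4NQO-treated tongue, and the mean log2 signal was 6.87 to 7.29 and 7.01 to 7.78, both overlapping. Over the 14 genes above the array medians in every tongue, the mean log2 signal was 7.97 to 8.05 in control and 8.15 to 8.32 in 4NQO-treated tongue, without overlap. This cut by brightness left out Aqp5, Pigr, Prom1 and Cldn7, each highest in 4NQO 3. It also left out Muc1, which was highest in 4NQO 1 and below the array medians in every tongue. The separation was seen only after the cut and was not tested.
Basal keratinocyte markers were above the array medians in every tongue, 8 of 8, with a median log2 fold change of 0.18. Of them 0 were called. Only Krt14 was higher at an unadjusted p under 0.05, beside 6.68% of all genes, with 0.32 (adjusted p = 0.442 from limma). Of 15 taste bud markers, 8 lay below the array medians in every tongue, and the median was -0.01. Only Gnb3, a G protein subunit, was lower at an unadjusted p under 0.05, beside 3.74% of all genes, with -0.42 (adjusted p = 0.436 from limma). Muscle fibre markers had a median of -0.15 and endothelial and mesothelial markers one of 0.02. In either list 0 were called and 0 had an unadjusted p under 0.05. Of the 15 muscle fibre markers, 14 had a log2 fold change below 0, beside 9514 of all 18193 genes. Of these markers, 2 lay lower in every treated tongue than in any control, as did 7.18% of all genes.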

How the data were processed

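The authors labelled RNA of 1 tongue per array (mouse genome array, 45101 probe sets) and normalized the arrays with R packages. What they deposited is a log2 signal for each probe set, by a normalization that is not stated in the sources used here. Control probe sets, 932 probe sets of several genes and 9160 of none were left out. Each gene was read from its probe set of highest mean over the 6 arrays, and 9 of the 10 keratins have 1 probe set. Symbols were checked by Entrez ID in RefSeq (18032 of 18193 genes found, 0 changed). All genes were fitted with limma 3.58.1 in R 4.3.3 (lmFit, then eBayes with a trend on intensity), without a filter on dim genes. Calls were made at 0.05 after Benjamini-Hochberg adjustment. SAM was written for this work. Both tests were run on simulated data with independent noise per gene, without the differences that many genes of a tongue can share. The number of arrays limits the precision. The members and lists were chosen with earlier results of these data known. Named genes are the members, up to 4 genes per list of smallest p, and the 3 closest genes per leading keratin. Amy1, Bpifa2, Smr2, Slc12a2, Krt34 and Krt31 were chosen after their values were seen.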

Additional observations from a re-analysis of the deposited data

How the results depend on the processing

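No keratin passed an adjusted p of 0.05 under any limma alternative, and SAM and the methods' t-test called 0. At an unadjusted p under 0.05 in limma, up to 3 did, most without control replicate 3. The direction held in all refits for Krt84, Krt7, Krt19, Krt1, Krt10 and Krt24. Krt36 had log2 fold changes of 0.029 with centred arrays, 0.10 without control replicate 1 and 0.23 without 4NQO replicate 1. Krt23 had 0.15 and 0.16 without the same arrays. Krt8 had -0.06 without control replicate 1, -0.61 without 4NQO replicate 3 and -0.16 without control replicate 2 and 4NQO replicate 3 (the last chosen after seeing the data), and Krt18 had -0.42 without 4NQO replicate 3 and 0.055 without control replicate 2 and 4NQO replicate 3. Over the fits that leave out 1 array the log2 fold change ran from -0.32 to 0.23 for Krt36, -0.61 to 1.1 for Krt8, -0.42 to 1.08 for Krt18 and -0.48 to 0.16 for Krt23. The cause was not tested. Krt8 and Krt1 have no value where dim genes were left out, nor have Krt7, Krt18 and Krt19.

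Over all genes, 23 were higher and 1 lower. The counts were 63 and 2 with centred arrays, 43 and 4 with robust eBayes, 41 and 4 with array weights, 12 higher with dim genes left out, 15 with the mean of all probe sets, 14 with the probe set of largest variance, and 2 lower without the intensity trend. They were 4 and 0 without control replicate 3 and 4NQO replicate 2, and 0 and 0 without control replicate 2 and 4NQO replicate 3. SAM gave 83 and 0, and the methods' t-test 1046 and 654 unadjusted and 1 higher after Benjamini-Hochberg. Leaving out 1 array gave 0 to 25 higher, with 0 without control replicate 2, 1 without 4NQO replicate 2 and 10 without 4NQO replicate 1, and 0 to 2 lower. With the replicate number as a block, 2 were higher and 0 lower. The labels do not say what the replicate number stands for. Same-number correlations were 0.29, -0.51 and 0.05, best with its own number for 1 of 3. So few arrays cannot decide whether equal numbers mark pairs. The block changed no keratin's call.

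Leaving out 1 array moved the group difference to -0.25 to 0.061 for Krt84 minus Krt36, -0.20 to 0.058 for Krt8 minus Krt18, -1.33 to 0.11 for Krt7 minus Krt19 and -0.21 to 1.38 for Krt1 minus Krt10. Without control replicate 3 and 4NQO replicate 2, Krt84 minus Krt36 gave 0.19 and Krt8 minus Krt18 gave 0.16. Signals below the array medians are not shown to be above background.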
